A study of Mus musculus with 12 samples.

Results

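The T-cell receptor alpha (TRA) and beta (TRB) segments used by T cells of the neonatal mouse meninges are described here from 4 receptor libraries. A receptor barcode, taken as 1 cell, is one with a contig (an assembled receptor transcript) that is marked productive and has a TRAV or TRBV segment. For each barcode and chain, the contig with the most UMIs (unique molecular identifiers, each standing for 1 captured RNA molecule) was kept. By this rule 117 barcodes were found, 35 in naive 1, 25 in naive 2, 29 in HI 1 and 28 in HI 2, and 113 of them were among the 21722 barcodes called in the paired gene expression libraries. They used 54 V segments, 35 TRAV and 19 TRBV, of the 163 TRAV and TRBV genes that the gene expression matrices list.

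The libraries came from the brain meninges of C57Bl/6j mice at postnatal day 4. The naive group was compared with a group taken 6 h after HI (hypoxia-ischemia, a combined loss of oxygen and blood flow to the brain). Every library pooled 12 mice, 6 males and 6 females, and each group had 2 pools. No sham group is among the samples, so HI cannot be told apart from the handling that came with it. Nothing in the labels ties library numbers to the 2 processing runs, and p-values measure only the spread between these pools.

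The receptor of an alpha-beta T cell is put together in the thymus by joining gene segments. The beta chain joins a V, a D and a J segment and is completed before the alpha chain, which joins a V to a J only. The join forms the third complementarity-determining region (CDR3), the loop that lies over the peptide. Bases trimmed or added at the join, the latter by the enzyme terminal transferase (Dntt), make the sequence differ from cell to cell, and few bases are added before birth. The alpha locus can recombine again and again, each time taking a V segment farther upstream and a J segment farther downstream, so that 5' TRAJ segments and the TRAV segments nearest to them are the first to be used. Gamma-delta T cells use other loci and carry no alpha-beta receptor on their surface.

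The CDR3 sequences below show what the deposited contigs hold at the join. Each is written 5' to 3' from the conserved cysteine codon. Capitals mark bases shared neither with chains of the same V and another J nor with chains of the same J and another V, and are given only where at least 2 such partners existed at each end. They are not a count of added bases, since no germline segment sequence was used. The first set is TRBV19 with TRBJ2-5, the most frequent V-J combination, which was found in 5 barcodes of 3 libraries with 5 different sequences.
TRBV19-TRBJ2-5, naive 1: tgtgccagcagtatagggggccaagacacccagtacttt
TRBV19-TRBJ2-5, naive 1: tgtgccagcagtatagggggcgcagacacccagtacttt
TRBV19-TRBJ2-5, HI 1: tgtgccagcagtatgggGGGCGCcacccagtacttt
TRBV19-TRBJ2-5, HI 1: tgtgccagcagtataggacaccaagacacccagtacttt
TRBV19-TRBJ2-5, HI 2: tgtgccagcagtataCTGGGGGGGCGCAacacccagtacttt

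The next set pairs alpha chains that share V and J but come from different libraries, shown because the members of a pair share both ends and differ around the join.
TRAV3-3-TRAJ30, naive 1: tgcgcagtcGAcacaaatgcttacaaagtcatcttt
TRAV3-3-TRAJ30, naive 2: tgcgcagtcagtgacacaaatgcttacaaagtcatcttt
TRAV6-7-DV9-TRAJ57, naive 1: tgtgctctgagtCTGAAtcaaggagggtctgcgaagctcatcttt
TRAV6-7-DV9-TRAJ57, HI 1: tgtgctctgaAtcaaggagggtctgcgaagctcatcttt

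The shortest and longest deposited CDR3 show the range of each chain. There were 2 TRA chains of 18 nucleotides. The one printed ends in act, while every other sequence printed here ends in ttt or ttc. Whether it is cut short was not tested.
TRAV21-DV12-TRAJ44, HI 2, shortest TRA: tgtatcctgagagttact
TRAV6-7-DV9-TRAJ52, naive 1, longest TRA: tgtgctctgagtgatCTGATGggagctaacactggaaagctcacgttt
TRBV1-TRBJ2-4, HI 2, shortest TRB: tgcagtgcaggggacaccttgtacttt
TRBV5-TRBJ1-4, HI 2, longest TRB: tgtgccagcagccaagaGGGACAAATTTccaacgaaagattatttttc

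The last set holds the CDR3 sequences found in more than 1 barcode.
TRBV13-3-TRBJ2-7, 4 barcodes of HI 1: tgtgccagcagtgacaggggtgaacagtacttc
TRAV14N-1-TRAJ17, 2 barcodes of HI 1: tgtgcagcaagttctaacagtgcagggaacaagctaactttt
TRBV29-TRBJ1-2, 2 barcodes of naive 2: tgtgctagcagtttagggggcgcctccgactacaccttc

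The receptor libraries were small. They held 123 to 168 contigs and 1473 to 2447 UMIs each, over 202612 to 234919 reads and 58 to 101 barcodes. In all there were 608 contigs in 346 barcodes, of which 335 were in the gene expression matrices. No receptor-library barcode was shared between libraries, while 29 to 55 barcodes were shared by each pair of gene expression matrices. Intervals below are exact Clopper-Pearson 95% intervals and cover counting error only.

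Receptor barcodes were rare among all called barcodes. They made up 0.643% of called barcodes in naive 1 (33 of 5134, interval 0.443% to 0.902%), 0.420% in naive 2 (25 of 5954, 0.272% to 0.619%), 0.641% in HI 1 (27 of 4213, 0.423% to 0.931%) and 0.436% in HI 2 (28 of 6421, 0.290% to 0.630%). The groups overlapped, with 0.531% ± 0.158 in naive and 0.538% ± 0.145 in HI (SD, n = 2; exact two-sided permutation p = 1). With 2 libraries against 2 this test cannot give a p below 0.33.

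Beta chains were found more often than alpha chains. A productive TRB chain was present in 34, 25, 29 and 28 barcodes of naive 1, naive 2, HI 1 and HI 2, and a productive TRA chain in 21, 14, 17 and 25. The median TRB chain had 31, 22, 23 and 22.5 UMIs, against 5, 6, 5 and 5 for TRA, in the same order. Of the 117 barcodes, 76 had both chains, 40 had TRB only and 1 had TRA only.

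Both chains were found in a larger share of barcodes in HI 2 than in the other 3 libraries. The share was 57.1% in naive 1 (20 of 35, interval 39.4% to 73.7%), 56.0% in naive 2 (14 of 25, 34.9% to 75.6%), 58.6% in HI 1 (17 of 29, 38.9% to 76.5%) and 89.3% in HI 2 (25 of 28, 71.8% to 97.7%). The group means were 56.6% ± 0.808 in naive and 74.0% ± 21.7 in HI (SD, n = 2), a difference of 17.4 percentage points (exact two-sided permutation p = 0.33). Without HI 2 the difference was 2.05 points. HI 2 also had the lowest level of macrophage marker RNA in its receptor barcodes, given below with the other markers. Its part in the pairing share was not tested. With only receptor barcodes under 50 UMIs of the macrophage C1q genes, the difference was 16.8 points. At least 50 such UMIs were found in 1, 4, 4 and 0 receptor barcodes of naive 1, naive 2, HI 1 and HI 2, so HI 2 was unchanged by that filter.

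A second productive chain was found in 6 barcodes for TRA, 2 in naive 1 and 4 in HI 2, and in 6 for TRB. T cells can carry a second alpha chain because that locus is not shut off after its first success, whereas the beta locus is. The second TRB contig had 0.5 to 0.893 times the UMIs of the first (median 0.656), and the second TRA contig 0.312 to 1 times (median 0.432). Doublets were not scored in these libraries, and their part in the second chains was not tested.

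The beta locus was led by TRBV19. It was used by 7 of 34 TRB chains in naive 1 (20.6%, interval 8.70% to 37.9%), 1 of 25 in naive 2 (4.00%, 0.101% to 20.4%), 8 of 29 in HI 1 (27.6%, 12.7% to 47.2%) and 5 of 28 in HI 2 (17.9%, 6.06% to 36.9%). Over all libraries this was 21 of 116 chains, 18.1% (11.6% to 26.3%). TRBV19 was high in 3 libraries and low in naive 2, and the groups overlapped. In RefSeq (GRCm38.p6) it lies at chr6:41178589-41179048.

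TRBV1, the segment farthest 5' in the locus among those found (chr6:40891296-40891885), followed with 5, 2, 2 and 3 chains in naive 1, naive 2, HI 1 and HI 2. TRBV13-2 had 4, 3, 2 and 0 chains, TRBV31 1, 5, 1 and 1, TRBV16 2, 2, 0 and 4, TRBV3 4, 1, 1 and 2, TRBV26 2, 2, 2 and 1, and TRBV15 3, 1, 3 and 0. TRBV31, which lies 3' of the constant regions (chr6:41557693-41558371) and joins by inversion, was highest in naive 2, where TRBV19 was lowest. TRBV1, TRBV3, TRBV19, TRBV26 and TRBV31 were the 5 TRBV segments seen in all 4 libraries. The 8 segments with the highest mean share held 80 of the 116 chains, 69.0%.

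**Figure D1:**
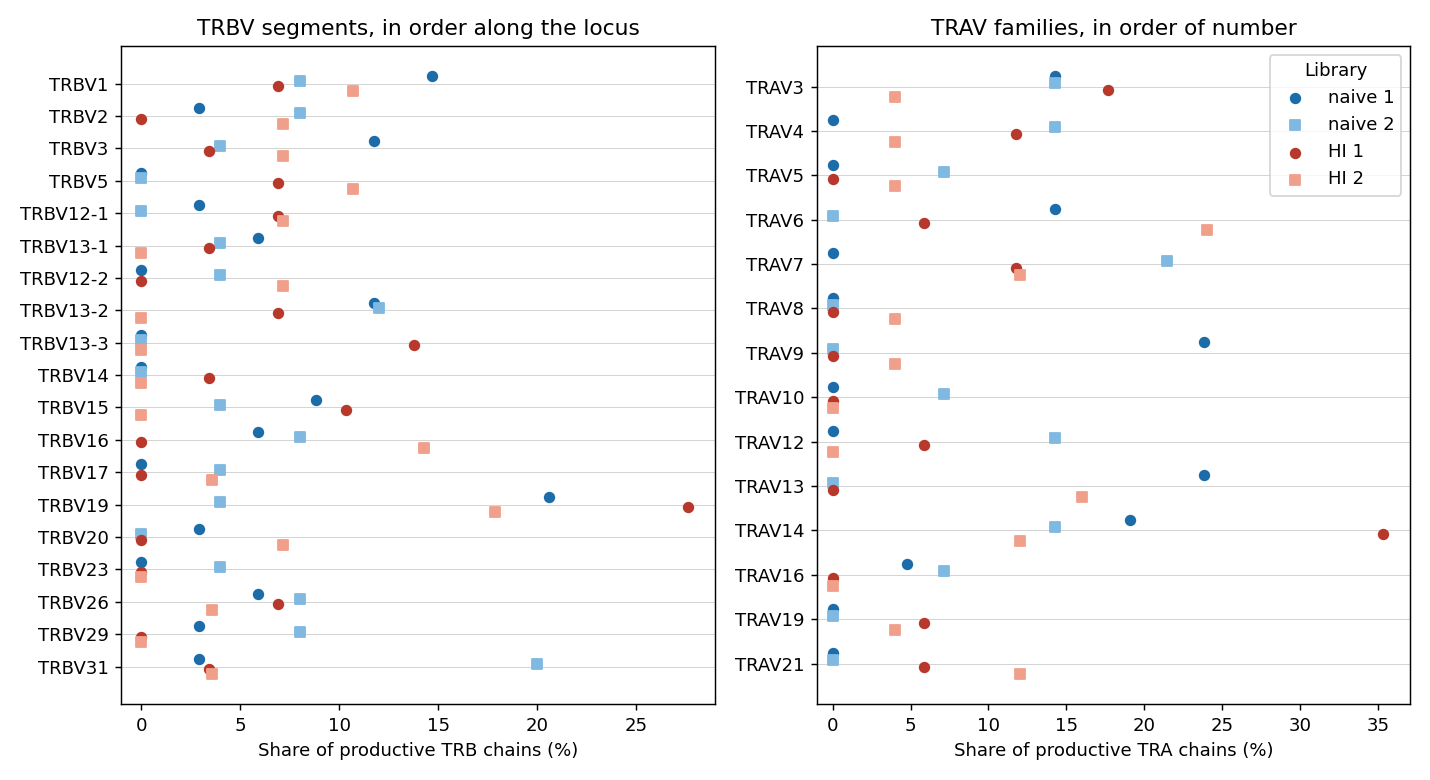
Share of productive chains (x axis, %) by TRBV segment in locus order (left) and by TRAV family (right), with 1 point per library and naive in blue, HI in red. TRBV19 holds 20.6%, 27.6% and 17.9% of chains in naive 1, HI 1 and HI 2 and 4.00% in naive 2, and TRAV14 is the family with the most chains.

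Alpha chains were spread more thinly. The 77 TRA chains used 35 TRAV segments, of which 16 were seen in a single cell, and the 8 with the highest mean share held 36 chains, 46.8%. TRAV3-3 was the only TRAV segment found in every library, with 2, 2, 3 and 1 chains in naive 1, naive 2, HI 1 and HI 2. TRAV6-7-DV9 had 3, 0, 1 and 3 chains, TRAV14N-1 1, 0, 3 and 1, TRAV14-3 0, 2, 1 and 1, and TRAV21-DV12 0, 0, 1 and 3. TRAV4-3 and TRAV7D-2 each had 0, 1, 1 and 1, and TRAV12D-3 had 2 chains, both in naive 2. By family, TRAV14 led with 15 of 77 chains (19.5%; 4, 2, 6 and 3 by library), followed by TRAV6 with 10.

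The mouse TRAV array contains near-identical duplicated copies, named with D or N, and the deposited calls cannot be checked against them here. Such copies took 23 of the 77 chains (29.9%). With the letters dropped, the 35 segments became 28, TRAV3-3 had 9 chains, and TRAV14-3 and TRAV6-7 had 7 each. The DV segments, which can also rearrange to the delta locus, took 15 chains.

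TRBJ2 segments were used more than TRBJ1 segments, in 73 of 116 chains (62.9%, interval 53.5% to 71.7%). The share was 70.6% in naive 1 (24 of 34, 52.5% to 84.9%), 60.0% in naive 2 (15 of 25, 38.7% to 78.9%), 65.5% in HI 1 (19 of 29, 45.7% to 82.1%) and 53.6% in HI 2 (15 of 28, 33.9% to 72.5%). The groups overlapped, with 65.3% ± 7.49 in naive and 59.5% ± 8.45 in HI (SD, n = 2; exact two-sided permutation p = 0.67). The difference of -5.75 percentage points became -11.4 with only receptor barcodes under 50 C1q UMIs (exact permutation p = 0.33, the smallest possible).

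Among single segments, TRBJ2-5 had 8, 3, 7 and 2 chains in naive 1, naive 2, HI 1 and HI 2, and TRBJ2-7 had 3, 2, 9 and 4. Of the 9 TRBJ2-7 chains of HI 1, 4 carried 1 CDR3 sequence, the repeated TRBV13-3 sequence shown above. TRBJ2-1 had 6, 5, 0 and 3, TRBJ1-2 2, 4, 1 and 5, TRBJ2-4 4, 1, 2 and 4, and TRBJ1-1 5, 2, 2 and 2.

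The D segments followed the order of the locus, in which each TRBD lies just 5' of its own TRBJ cluster. TRBD2 (chr6:41542163-41542176), which lies 3' of the TRBJ1 cluster, was called with TRBJ1 in 0 chains and with TRBJ2 in 39. TRBD1 (chr6:41533201-41533212), 5' of both clusters, was called with TRBJ1 in 25 chains and with TRBJ2 in 20. No D was called in 18 TRBJ1 and 14 TRBJ2 chains. The absence of TRBD2 with TRBJ1 held in each of the 4 libraries.

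Alpha chains favoured 5' TRAJ and proximal TRAV segments. TRAJ segments are numbered outwards from the constant region, and numbers of 31 and above are called 5' here. They were used by 58 of 77 chains (75.3%, interval 64.2% to 84.4%), while 31 of the 60 TRAJ genes in RefSeq (51.7%) have such numbers. By library the share was 85.7% in naive 1 (63.7% to 97.0%), 64.3% in naive 2 (35.1% to 87.2%), 64.7% in HI 1 (38.3% to 85.8%) and 80.0% in HI 2 (59.3% to 93.2%). The groups overlapped, with 75.0% ± 15.2 in naive and 72.4% ± 10.8 in HI (SD, n = 2; exact two-sided permutation p = 1). Only 1 chain, in HI 1, used a TRAJ segment numbered below 17, though 15 of the 60 RefSeq genes lie there. RefSeq genes, here and for TRAV below, were counted by name, whether or not they can form a productive chain.

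The TRAV segments lay 344 to 1536 kb upstream of the constant region (chr14:54220521-54224198), with medians of 585, 668, 604 and 585 kb in naive 1, naive 2, HI 1 and HI 2. In all, 61 of 77 chains (79.2%, interval 68.5% to 87.6%) used a TRAV nearer to the constant region than 985 kb, the median of the 130 TRAV genes in RefSeq on that chromosome. Across the 77 chains, TRAV distance and TRAJ distance had a Spearman rho of -0.39, which is given as a description because chains of 1 library share its depth. Within libraries rho was -0.19, 0.02, -0.64 and -0.48, so it was weak in naive 1 and near 0 in naive 2, with 14 chains. The median TRAJ number with TRAV nearer and farther than 985 kb was 35.5 and 40 in naive 1, the other way round. It was 40 and 32 in naive 2, 40.5 and 27 in HI 1, and 42.5 and 39 in HI 2, with 3 to 5 farther chains each. The repeated TRAV14N-1-TRAJ17 sequence enters HI 1 in 2 barcodes.

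**Figure D2:**
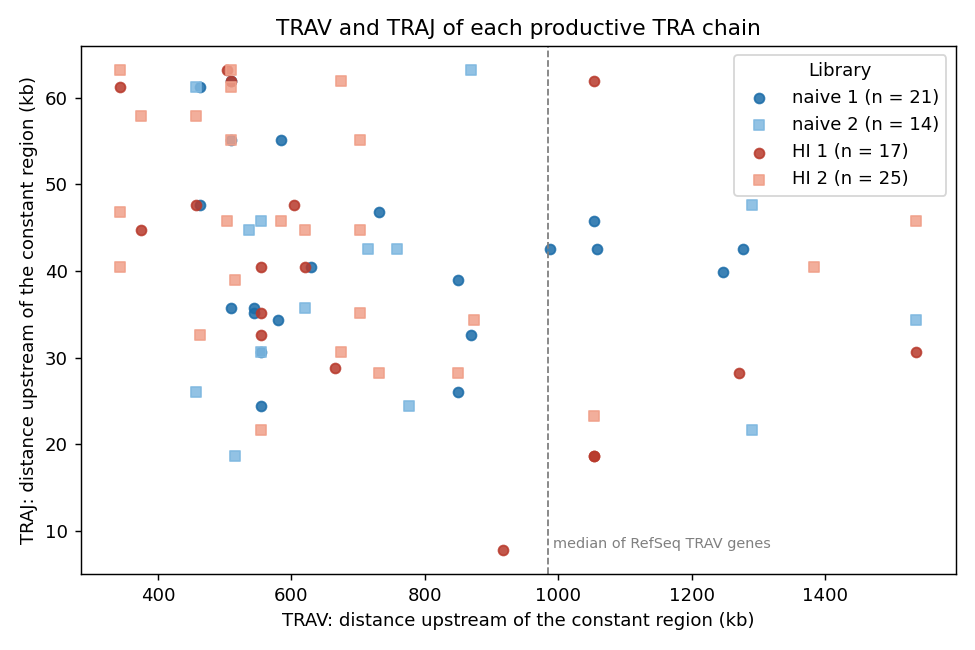
Each point is 1 productive TRA chain, placed by the distance of its TRAV (x axis, kb) and TRAJ (y axis, kb) upstream of the alpha constant region, with colours for the 4 libraries. Of the 77 points, 61 lie left of the dashed line at 985 kb, the median of RefSeq TRAV genes.

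Single TRAJ segments were each used by few chains. TRAJ40 had 3, 2, 0 and 0 chains in naive 1, naive 2, HI 1 and HI 2, TRAJ39 1, 0, 2 and 2, TRAJ43 1, 1, 0 and 3, and TRAJ45 1, 1, 2 and 0. TRAJ30 and TRAJ56 each had 1 chain in every library and were the 2 TRAJ segments seen in all 4.

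No V or J segment passed the test between HI and naive. Of the 37 segments with at least 4 cells, 0 had an adjusted p under 0.05 in edgeR's quasi-likelihood test on cells per library, so that 0% of tested segments were called. In that test 2 segments had an unadjusted p under 0.05. DESeq2 called 0, with 0 at an unadjusted p under 0.05, and so did edgeR with the library number as a block. TRAJ40, with 5 chains in the naive libraries and 0 in HI, had an unadjusted p of 0.00959 and an adjusted p of 0.355. TRBV5, with 2 and 3 chains in HI 1 and HI 2 and 0 in naive, had an unadjusted p of 0.0204 and an adjusted p of 0.378. A count of 0 in a group of this size does not show absence. By the approximate rule of 3 divided by the number of chains, 0 of the 42 TRA chains in HI allows a share of up to 7.14%. For 0 of the 59 TRB chains in naive this limit is 5.08%. Such limits are lower than the upper end of a Clopper-Pearson interval.

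A V-J combination also found in another barcode was carried by 63 of 116 TRB chains and 8 of 77 TRA chains. These counts include the barcodes that share 1 CDR3, 4 of TRBV13-3-TRBJ2-7, 2 of TRBV29-TRBJ1-2 and 2 of TRAV14N-1-TRAJ17. TRA also had more segments to combine, with 35 TRAV and 26 TRAJ found against 19 TRBV and 12 TRBJ. Among TRB chains 78 combinations were found, 17 of them in at least 2 libraries, and among TRA chains 73, of which 3 were in at least 2. After TRBV19-TRBJ2-5, TRBV19-TRBJ2-1 was found in 4 barcodes of 2 libraries, and TRBV13-2-TRBJ2-7, TRBV19-TRBJ2-4 and TRBV19-TRBJ2-7 each in 3 barcodes of 3 libraries. TRBV1-TRBJ2-1 was found in 3 barcodes of 2 libraries. For alpha, TRAV3-3-TRAJ30, TRAV6-7-DV9-TRAJ52 and TRAV6-7-DV9-TRAJ57 were each found in 2 libraries, with a different CDR3 in each.

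The 76 barcodes with both chains held 70 different TRAV-TRBV pairs. The 5 pairs seen in 2 libraries were TRAV14-3, TRAV6-7-DV9 and TRAV7D-2 with TRBV19, and TRAV3-3 and TRAV4-3 with TRBV16. All 5 therefore paired with TRBV19 or TRBV16, which held 21 and 8 of the 116 TRB chains. Each of the 5 was seen in 2 barcodes.

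The textbook chains of innate-like T cells were not found. TRAV11-TRAJ18, the alpha chain of invariant natural killer T cells, was in 0 of 77 TRA chains, and so was TRAV1-TRAJ33, that of mucosal-associated invariant T cells. By the same approximate rule of 3, a count of 0 allows a share of up to 3.90%. TRAJ33 was used by 3 chains with other TRAV segments.

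CDR3 length was alike in the 4 libraries. Mean TRA length was 39.6, 39.2, 40.1 and 38.9 nucleotides in naive 1, naive 2, HI 1 and HI 2, and mean TRB length was 38.7, 39.8, 37.9 and 38.4. TRA ranged from 18 to 48 nucleotides and TRB from 27 to 48, both with a median of 39. The lower end of TRA rests on 2 chains of 18 nucleotides, and the next shortest had 30. Those 2 chains, in naive 1 and HI 2, are part of the means of their libraries. Whether their deposited sequences are complete was not tested. For TRA the groups overlapped, with 39.4 ± 0.253 in naive and 39.5 ± 0.834 in HI (SD, n = 2; exact two-sided permutation p = 1). For TRB the groups did not overlap, with 39.3 ± 0.781 in naive and 38.1 ± 0.350 in HI (SD, n = 2; exact two-sided permutation p = 0.33). That p is the smallest this design allows, and HI was lower by 1.18 nucleotides, less than 1 codon. The 4 repeats of the 33-nucleotide TRBV13-3 sequence are part of the HI 1 mean.

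**Figure D3:**
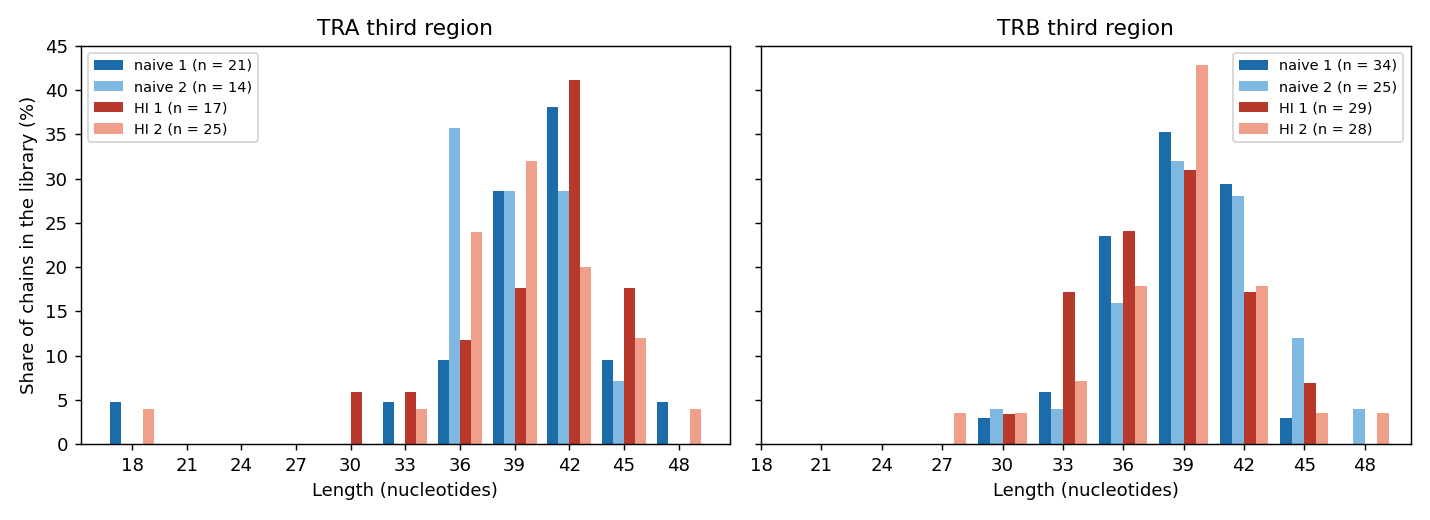
Share of chains in each library (y axis, %) by CDR3 length in nucleotides (x axis) for TRA and TRB, with bars for the 4 libraries grouped at each length. The 4 libraries peak between 36 and 42 nucleotides, and 2 TRA chains, in naive 1 and HI 2, have 18.

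Many joins left few or no bases that the partners at either end did not share. For TRB, 102 of 116 chains had enough partners, the median was 3 such bases, and 33 chains had none. By library the median was 1, 3, 3 and 5 bases in naive 1, naive 2, HI 1 and HI 2. For TRA, 33 of 77 chains had enough partners, with a median of 1 base and 15 chains with none. This count falls as a segment has more partners, so it depends on the number of chains, and libraries and segments cannot be ranked by it. In the TRBV19-TRBJ2-5 set above, 3 of the 5 sequences have no capital.

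No CDR3 was found in more than 1 library, neither as nucleotides nor as amino acids. The 77 TRA chains held 76 different nucleotide sequences, and the 116 TRB chains 112. Of the 4 HI 1 barcodes with the repeated TRBV13-3 sequence, 2 were in the gene expression matrix, with 3633 and 18397 UMIs in all, and both carried the same TRAV14N-1-TRAJ17 chain. They had 13 and 10 UMIs of the Cd3 genes, 11 and 8 of Cd8 and 0 of Cd4, and 0 and 341 of the macrophage C1q genes. The other 2 had no TRA chain. The 2 naive 2 barcodes with the repeated TRBV29 sequence had 74 and 78 C1q UMIs and 17 and 22 Cd3 UMIs. Barcodes sharing a sequence differed at 9 or more bases. Whether these are sister cells or RNA of 1 cell in several droplets was not tested.

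Most deposited TRB contigs were not productive. Of 563 TRA and TRB contigs 358 were not marked productive, 301 of 423 TRB (71.2%, interval 66.6% to 75.4%) and 57 of 140 TRA (40.7%, 32.5% to 49.3%). By library the share was 62.6% in naive 1 (54.5% to 70.2%), 72.4% in naive 2 (64.4% to 79.5%), 57.5% in HI 1 (47.9% to 66.8%) and 60.7% in HI 2 (52.4% to 68.5%). The HI libraries were below both naive libraries, with 59.1% ± 2.22 against 67.5% ± 6.95 (SD, n = 2; exact two-sided permutation p = 0.33, the smallest possible). The difference was -8.40 percentage points, and -1.44 with only contigs marked full length (exact permutation p = 1).

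Nearly all non-productive TRB contigs lacked a V segment. There were 288 of these, 76, 86, 49 and 77 in naive 1, naive 2, HI 1 and HI 2, and 284 of them ran from a J segment into the constant region. Transcripts of this kind are known from D-J joins and from unrearranged J clusters, which are transcribed without a V. TRBJ2-1, the first J of the TRBJ2 cluster (chr6:41542754-41542803), was the J segment of 181 (62.8%, interval 57.0% to 68.4%), against 14 of 116 productive TRB chains (12.1%, 6.76% to 19.4%). By library, TRBJ2-1 took 63.2%, 68.6%, 59.2% and 58.4% of V-less contigs and 17.6%, 20%, 0% and 10.7% of productive chains, so the 2 ranges did not overlap. The median V-less contig had 10 UMIs and the median productive TRB chain 24.5.

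**Figure D4:**
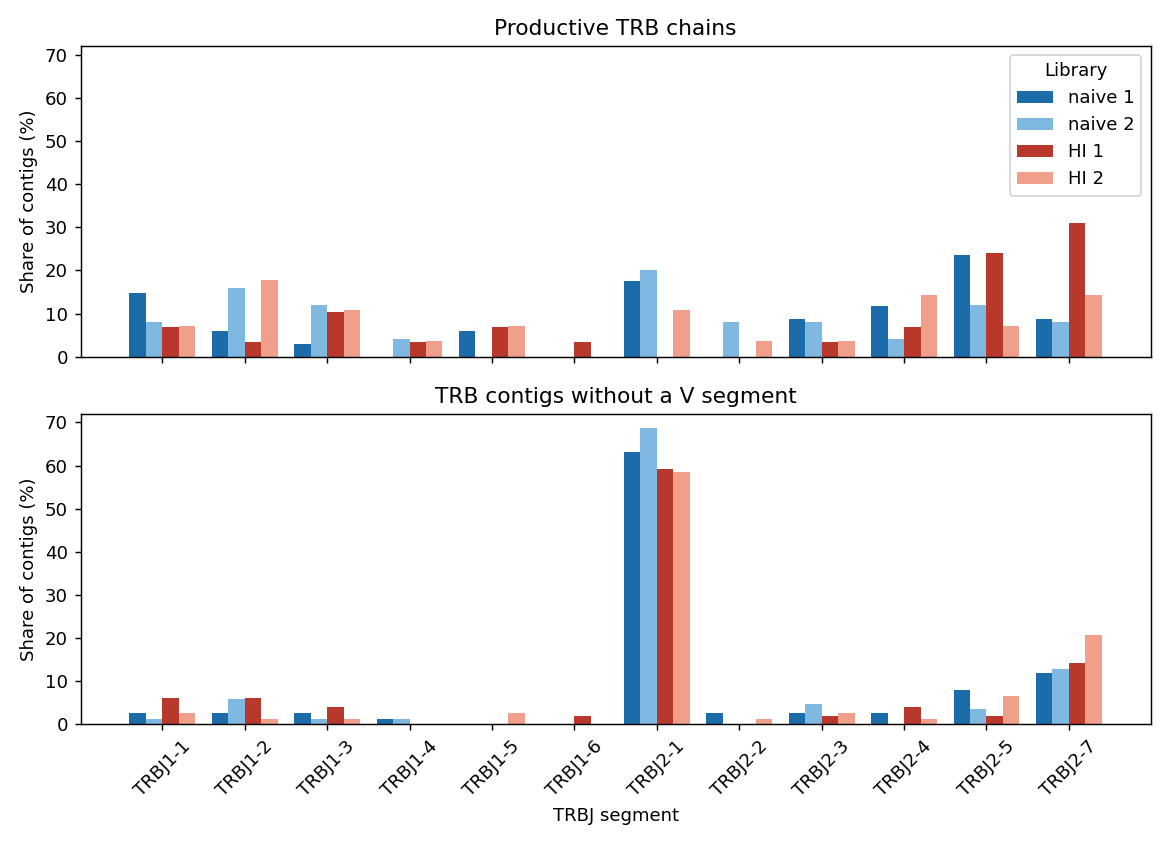
Share of contigs (y axis, %) by TRBJ segment for productive TRB chains (top) and TRB contigs without a V segment (bottom), with 1 bar per library. TRBJ2-1 holds 58.4% to 68.6% of V-less contigs and at most 20% of productive chains in each of the 4 libraries.

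V-less contigs were in 64 of the 117 receptor barcodes and in 224 of the 229 barcodes that had no productive contig. In receptor barcodes 29 of 64 used TRBJ2-1, and in the others 152 of 224.

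Contigs that had a V segment but failed to be productive were few. They were 34 TRA contigs over 24 TRAV segments, 14 of which also occurred in productive chains, and 13 TRB contigs over 7 TRBV segments, 6 of which did. Only 7 TRA or TRB contigs spanning V, J and the constant region were marked False outright, among them 2 of TRBV23 and 1 each of TRBV1, TRBV15 and TRBV26. The rest of the non-productive contigs with a V carried no verdict.

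The constant-region call did not separate the 2 beta constant genes. All 420 TRB contigs with such a call had TRBC1, including those with a TRBJ2 segment, whose own constant gene is TRBC2. Whether the reference used for the contigs held TRBC2 is not given in the sources used here. In the gene expression counts, Trbc2 made up 73.3% of Trbc UMIs in barcodes with a TRBJ2 chain (70 barcodes) and 46.6% in those with a TRBJ1 chain (42 barcodes). The range was 65.8% to 84.0% and 43.1% to 55.3% over the 4 libraries. The genes are near-identical, and the counting can divide their reads.

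The V calls were checked against the gene expression libraries, which come from the same captured RNA. The called TRBV had UMIs in 112 of 112 barcodes, and 2437 of the Trbv UMIs there were of the called segment against 235 of others, 91.2%. For TRAV, the called segment had UMIs in 58 of 77 barcodes, with 302 UMIs against 90 of others, 77.0%. Among barcodes with no productive contig, 17 of 222 had any Trbv UMI and 19 any Trav UMI. Among 18527 barcodes with at least 50 C1q UMIs that were absent from the receptor libraries, a class that should lack both, 0.0540% had a Trbv and 0.475% a Trav UMI.

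Receptor barcodes carried the RNA of alpha-beta T cells. All 113 in the matrices had a UMI of Cd3d, Cd3e or Cd3g, the chains that carry the receptor's signal, at a median depth of 8940 UMIs, against 0.135% of the C1q barcodes (median depth of the 4 libraries' medians 11114). Gamma-delta constant genes had a UMI in 17 of the 113 (8, 4, 2 and 3 by library). In the barcodes with no productive contig they had one in 192 of 222, at a median depth of 12202 UMIs, and Cd3 had one in 138.

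The co-receptors Cd4 and Cd8 mark helper and cytotoxic T cells. Among receptor barcodes 53 had Cd4 UMIs only (15, 10, 12 and 16 in naive 1, naive 2, HI 1 and HI 2), 33 had Cd8 only (10, 9, 8 and 6), 20 had both (6, 3, 7 and 4) and 7 had neither. Cd4 had a UMI in 29.6% of the C1q barcodes and Cd8 in 0.0270%, so Cd4 UMIs, unlike Cd8 UMIs, were also common where macrophage RNA was. At least 50 C1q UMIs were found in 1, 4, 4 and 0 receptor barcodes. The summed level of the 8 macrophage markers in them was 930, 3012, 3856 and 103 CPM (UMI counts scaled to the same total per library), and its part in the co-receptor counts was not tested.

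To see which cells gave the productive contigs, UMIs were summed per library over receptor barcodes and over barcodes with no productive contig, and compared with the library as a block. This comparison was added after the data were seen. Of 4592 genes 472 were higher in receptor barcodes (10.3%) and 433 lower (9.43%), by edgeR's quasi-likelihood test at an adjusted p under 0.05. Without naive 1 the calls in both directions fell from 905 to 535, and DESeq2 made 586. The median log2 difference over all genes was -0.02.

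Receptor complex and signalling genes were higher in receptor barcodes, 13 of 15 with 0 lower, at a median log2 difference of 1.49. Of these, Trac, Trbc1 and Trbc2 are the RNA that the rule itself read, and they support nothing further. Without them 10 of 12 were higher, at a median of 1.34. Cd3d was at 1277, 941, 979 and 1369 CPM in receptor barcodes of naive 1, naive 2, HI 1 and HI 2, and at 328, 427, 228 and 213 CPM in the others. Every receptor value was above every other value, with a log2 difference of 2.10 ± 0.22 (SE; edgeR adjusted p = 0.000179). Lck, the kinase that starts receptor signalling, was higher by 2.13 ± 0.16 on the log2 scale, and the co-stimulatory receptor Cd28 by 3.43 ± 0.39. Zap70 and Lcp2, which natural killer cells also use, were the 2 of 15 that did not pass, with log2 differences of -0.40 ± 0.15 and -0.07 ± 0.15. Of the alpha-beta list, which shares most of its genes with this one, 7 of 7 were higher once Trac and Trbc2 were set aside. Its member Bcl11b, a factor of T-cell commitment, had an adjusted p of 0.0132 in edgeR and 0.111 in DESeq2.

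Most genes of the co-receptor and state list were higher as well. Of its 13 tested genes, 9 were higher and 2 lower, at a median log2 difference of 2.84. Ccr7, the receptor for homing to lymph nodes, was at 894, 731, 624 and 1025 CPM in receptor barcodes and at 30.5, 113, 89.9 and 60.2 CPM in the others (log2 difference 3.71 ± 0.35, SE). Lef1 was higher by 3.25 ± 0.31 and S1pr1, the receptor for leaving tissues, by 2.84 ± 0.25. Cd8b1 was higher by 4.34 ± 0.42 and Cd4 by 0.78 ± 0.17, the latter with an adjusted p of 0.0106 in edgeR and 0.0655 in DESeq2. Cd44, a marker of activated and memory cells, was lower, at 32.9, 25.3, 21.6 and 24.8 CPM against 105, 101, 101 and 91.0 CPM (log2 difference -1.78 ± 0.23, SE). Il7r was lower by a log2 difference of -0.59 ± 0.14, and its adjusted p rose to 0.0857 without naive 2 and 0.0605 without HI 1.

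Gamma-delta T-cell genes were lower, 7 of the 7 that could be tested, at a median log2 difference of -3.02. Tcrg-C1, a gamma constant gene, was at 29.9, 10.9, 34.0 and 8.27 CPM in receptor barcodes and at 524, 499, 697 and 723 CPM in the others (log2 difference -4.68 ± 0.28, SE). Trdc, the delta constant gene, was lower by -2.34 ± 0.30, and Cd163l1 by -3.20 ± 0.46. Tcrg-C4, Trdv4 and Blk each lost their call in at least 1 of the fits that left out a library. Both tested genes of the list for type 2 innate lymphoid cells, Gata3 and Rora, were lower too.

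Of the 8 macrophage genes 0 passed in either direction in the fit of all 4 libraries. Without HI 2, whose receptor barcodes had the lowest macrophage level, Csf1r, Mrc1 and Pf4 were called higher in receptor barcodes, with log2 differences of 1.14, 1.41 and 0.90. Of the 2 natural killer genes tested, Nkg7 was higher and Gzma lower in receptor barcodes, and the defining Ncr1 had 0 UMIs there. Nkg7 lost its call without naive 1, naive 2 or HI 2, and Gzma in DESeq2 and without naive 2. Of the 2 B-cell genes tested, Ighm was higher, while Ms4a1 had 0 UMIs. No neutrophil gene passed the filter on low counts.

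**Figure D5:**
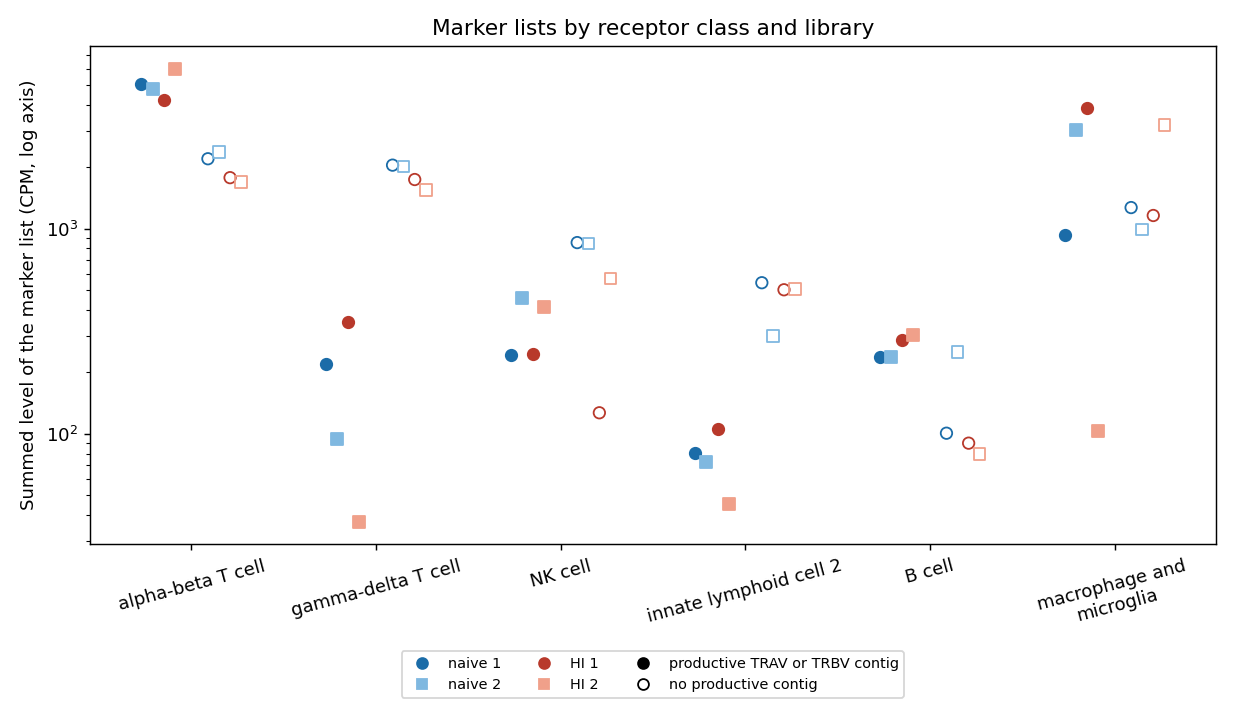
Summed level of each marker list (y axis, CPM, log scale) by library, for receptor barcodes (filled) and barcodes with no productive contig (open), naive in blue and HI in red. The gamma-delta list is at 37.2 to 349 CPM in receptor barcodes and at 1538 to 2037 CPM in the others, and the macrophage list overlaps between the classes.

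Of the 10 genes listed for the recombination machinery, 4 were not seen in receptor barcodes. Rag1 and Rag2, which cut the segments, Dntt, and Ptcra, the partner of the beta chain before the alpha chain is made, had 0 UMIs in the 1176437 UMIs of the receptor barcodes. The same 4 genes had 0 UMIs in the barcodes with no productive contig as well. The general repair genes Xrcc4, Xrcc5, Xrcc6, Lig4, Dclre1c and Prkdc were seen, at 1 to 14 UMIs per library.

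Between HI and naive, gene expression in receptor barcodes gave no call in the fit of all 4 libraries. Of 4007 genes 0 passed at an adjusted p under 0.05 (0%) in edgeR, 204 had an unadjusted p under 0.05, and DESeq2 called 2. Of the 15 receptor complex genes, 12 tested state genes and 9 alpha-beta genes, 0 passed. Fits that left out 1 library called 14 to 69 genes, so the result depends on which libraries enter: 36 without naive 1, 14 without naive 2, 60 without HI 1 and 69 without HI 2. The lone library of a group is then assumed to vary like the others. Cd8b1 was at 712, 467, 414 and 360 CPM, higher in both naive libraries, and did not pass the test.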

How the data were processed

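Per the labels, meningeal cells were processed with the 10x Genomics 5' kit and its receptor enrichment. The submitters' processing notes name Seurat 3.027, Cell Ranger 2.2.0, mm10 and GRCm38, without their roles. The deposited receptor files give whole-number UMI and read counts per contig, and the deposited matrices give UMI counts per gene and barcode, not normalized. The B-cell receptor files were not used. Chains with few UMIs can be missed at this depth.

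Productive TRAV and TRBV contigs were kept, 1 per barcode and chain by UMIs. Segments with at least 4 cells were tested with edgeR 4.0.16 (R 4.3.3) on cells per library, with the log of each locus' chains as offset. Shares and lengths were tested by exact permutation over the 4 libraries. UMIs of receptor barcodes were summed per library and tested after filterByExpr and TMM. DESeq2 1.42.0 was the other tool, and adjustment was by Benjamini-Hochberg. Scripts were tested on simulated data. Alternatives were a minimum of 2 UMIs, all productive contigs, full-length contigs only, called barcodes only, barcodes with both chains or with a Cd3 UMI, TMM scaling, 1 barcode per clone, cell filters (200 genes, 10% mitochondrial), duplicated TRAV copies merged, no count filter, a replicate block and leaving out each library.

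Named segments are the 8 TRAV, 8 TRBV, 6 TRAJ and 6 TRBJ with the highest mean share, combinations in at least 2 libraries, and 2 textbook alpha chains. Segments named beyond this, such as TRBV5, TRBV13-3, TRBV29 and TRBV23, were chosen after their values were seen. The segments, gene lists and tests were chosen with earlier results of these data known. Positions are RefSeq GRCm38.p6, in which all segments found were matched by name. CDR3 lengths are those of the deposited nucleotide sequences. Some genes of the lists are not reported here by name.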

Additional observations from a re-analysis of the deposited data

Results flagged for a closer look

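Contigs that join TRAJ50 to the beta constant region TRBC1 belong to no comparison above, and their share was higher in both HI libraries than in both naive libraries. There were 4, 5, 6 and 7 in naive 1, naive 2, HI 1 and HI 2, 9 in naive and 13 in HI. As a share of all deposited contigs this was 2.38%, 3.18%, 4.88% and 4.38%. All 22 lacked a V segment, and the median one had 1 to 4 UMIs by library. This item was chosen because the lowest HI share was above the highest naive share, so that separation is no separate result. The difference between the groups was not tested. TRAJ50 (chr14:54167590-54167652) and TRBC1 (chr6:41538219-41539665) lie on different chromosomes, and how these contigs arose was not tested. As for TRB contigs, the TRBC1 call does not tell TRBC1 from TRBC2.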

How the results depend on the processing

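With 2 libraries a group, no permutation test can reach 0.05, and 77 TRA and 116 TRB chains limit every share. Differences below are HI minus naive. The TRA length difference changed sign with every productive contig counted (-0.0343 nucleotides) and with receptor barcodes under 50 C1q UMIs (-0.164, chosen after seeing the data). The difference in 5' TRAJ share turned to 0.285 percentage points with every productive contig counted. Leaving out 1 library gave 2.05 to 32.7 points for pairing, -0.513 to 0.666 nucleotides for TRA length, -1.73 to -0.626 for TRB length, -11.7 to 0.223 points for TRBJ2, -13.4 to 8.07 for 5' TRAJ, -13.3 to -3.49 for the non-productive share and -0.104 to 0.119 for receptor barcodes. With both chains required, the difference in receptor barcodes per 100 called barcodes went from 0.00714 to 0.0841. Clonotypes were defined by the TRA and TRB CDR3 together, with a missing TRA as its own value. Repeated TRB sequences found both with and without a TRA were therefore not fully merged. The 5' TRAJ difference was -0.625 points with 1 barcode per clonotype and -0.119 in barcodes under 50 C1q UMIs. The cause was not tested.

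Segments called stayed at 0 in every alternative run. Genes called between HI and naive went from 0 to 2 with DESeq2, 17 with no count filter and 14 to 69 with 1 library left out. Between the classes, 905 became 586 with DESeq2 and 535 to 835 with 1 library left out. Library numbers did not clearly pair the libraries: same-numbered deviations correlated at -0.19 over genes and 0.19 over segments. With the replicate block 0 segments and 0 genes were called. With crossed pairs, chosen after seeing the data, 0 segments and 24 genes were called. Of 252 values for segment shares 251 moved by at most the spread (SD) between libraries. The exception was TRAJ56, at 2.79% in barcodes under 50 C1q UMIs. Many of the 252 could not have moved by more, so the count does not measure stability. Leaving out 1 library cannot shift the mean of a share by that SD. The minimum of 2 UMIs changed no share, since every kept chain had at least 2. Of 185 alternative values for listed genes between the classes, 20 lost significance and 0 changed sign.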

Other observations

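A delta V segment was found in 4 productive contigs with a TRAJ segment and the alpha constant region, 1 in naive 1, 2 in naive 2 and 1 in HI 2. They were 3 of TRDV1, with TRAJ50 in 2 and TRAJ31 in 1, and 1 of TRDV2-2 with TRAJ57. The 4 had 4 to 10 UMIs, and their CDR3 sequences were 39 to 45 nucleotides long. All 4 barcodes also held a productive TRAV or TRBV contig and had 0 UMIs of the gamma and delta constant genes. They are not counted among the TRAV chains.

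Beyond the fixed lists, barcodes with no productive contig had more RNA of several genes, named here after their values were seen. Tmem176a averaged 24.8 CPM in receptor barcodes and 622 CPM in the others (n = 4 libraries), Id2 62.7 and 1259, Il18r1 12.4 and 149, and Arg1 2.27 and 262. Genes higher in receptor barcodes included Ms4a4b, at 2215 against 207 CPM, Ms4a6b, at 995 against 68.8, Igfbp4, at 824 against 190, and Ifi27l2a, at 641 against 46.6.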
